A study of Mus musculus with 6 samples.

Results

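The genes described here are the molecular chaperones and the proteasome subunits of preoptic area neurons. Members were taken by symbol: the heat shock proteins (Hsp), the J-domain proteins (Dnaj), the TRiC chaperonin (Cct and Tcp1), the BAG cochaperones, Stip1, the heat shock factors Hsf1 and Hsf2, and every gene whose symbol began with Psm. Of the 9583 genes in the deposited table, 111 fitted, of which 70 were chaperones or their partners and 41 belonged to the proteasome. In the mouse annotation (GENCODE release M21, GRCm38), 143 protein-coding genes carried such symbols, and 32 of them were not in the table, among them Hspb1, Hspa1l, Psmb8 and Psmb9. The table holds only genes with at least 1 RPM in every library, so members that were low in either type of neuron could not be examined here.

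The preoptic area (POA) of the hypothalamus holds neurons that respond to temperature. The study asked which transcripts set apart POA neurons that are activated by cold. Neurons were dissociated from naive wild-type C57Bl/6J mice of 6 to 14 weeks, loaded with a calcium indicator and cooled to about 10°C on the coverslip, and single cells were then aspirated according to their response. Cold-sensitive neurons came from the top 7% of the response amplitudes and cold-insensitive neurons from the bottom 14%, both from the same coverslips, so that every cell sequenced had gone through papain digestion at 34°C, plating, imaging and cooling. Each of the 6 libraries was a pool of about 100 to 200 such cells gathered over several isolations, with 3 pools per type. No pool was left uncooled, so the values compare types of neuron and not cooled with uncooled cells.

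Chaperones are proteins that help others to fold. HSP70 binds exposed stretches of unfolded chains, J-domain proteins bring it its clients, HSP110 and BAG proteins exchange its nucleotide, and HSP90 finishes the folding of kinases and receptors. TRiC is a barrel that folds actin and tubulin. What cannot be folded is tagged with ubiquitin and degraded by the proteasome, a hollow 20S core built from rings of alpha and beta subunits and capped by the 19S particle, whose ATPases unfold the substrate. Neurons do not divide and cannot dilute damaged proteins, and they are known for a weak induction of the classical heat shock genes. The cytosolic heat shock response is driven by HSF1, and the response of the endoplasmic reticulum (ER) by ATF6, XBP1 and ATF4.

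Total counts were 3316441 to 6818554 per library, and the pool labelled cold-sensitive replicate 3 was the deepest. Of the markers of neurons, 9 of 9 were in the table. Of the markers of microglia and of endothelial and mural cells, 0 of 9 and 0 of 8 were in it. Pdgfra, a receptor of oligodendrocyte precursors, fell from 336 to 364 RPM in the cold-insensitive pools to 7.68 to 19.9 RPM in the cold-sensitive ones (adjusted p = 1.55e-09 by edgeR). C1ql1, the other precursor marker in the table, had 8.28, 4.43 and 2.74 RPM against 9.77, 13.2 and 7.14 RPM and overlapped. The remaining 6 of 8 markers of these precursors were not in the table. Mbp, a myelin gene, had 193, 48.4 and 16.1 RPM in the cold-insensitive and 416, 143 and 73.6 RPM in the cold-sensitive pools and overlapped. In a pool, fewer cells of a type and less RNA per cell cannot be told apart, and the part of these markers in the values below was not tested.

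No member differed between the types at an adjusted p of at most 0.05. By edgeR's quasi-likelihood test with Benjamini-Hochberg adjustment over all genes, 112 genes or 1.17% of the table were called, 32 higher (0.334%) and 80 lower (0.835%) in cold-sensitive neurons, and 0 of them were members. DESeq2 called 224 genes (2.34%) and limma 113 (1.18%), again with 0 members. At an unadjusted p under 0.05, edgeR gave 9 members higher and 1 lower, against 5.04% and 5.66% of all genes, DESeq2 gave 11 and 0, and limma 9 and 0. The smallest adjusted p of a member was 0.256 by edgeR, 0.0850 by DESeq2 and 0.170 by limma. The 9 and 1 were 8.11% and 0.901% of the members.

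Most of the small differences pointed to higher levels in cold-sensitive neurons. The log2 fold change was above 0 for 74 of the 111 members (66.7%), against 50.1% of all genes, with a median of 0.17 against 0.00. For 16 members (14.4%) every cold-sensitive pool lay above every cold-insensitive pool, which held for 7.84% of all genes. The reverse held for 1 member (0.901%), against 8.18%. These counts rested in part on single pools. Without cold-sensitive replicate 3 the median of the members was 0.06, and 60 members were above 0. That pool had the highest value of all 6 for 38 members (34.2%), while it was highest for 15.3% of all genes, and members took 2.82% of its counts against 2.25% to 2.38% in the other pools. Without cold-insensitive replicate 2 the count higher at an unadjusted p under 0.05 was 3 in place of 9. It was 6 when cold-insensitive replicate 3 was left out, and also 6 when cold-sensitive replicate 3 was.

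**Figure D1:**
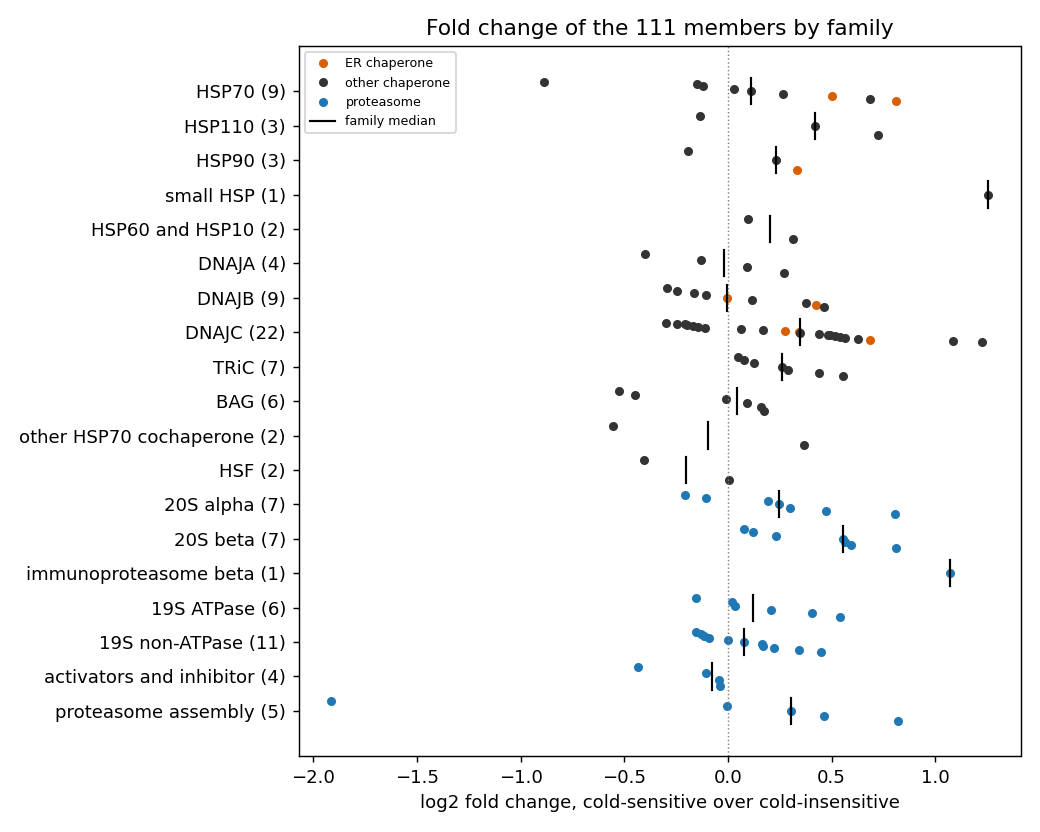
Each point is 1 of the 111 members, placed by its log2 fold change of cold-sensitive over cold-insensitive neurons (horizontal axis) and its family (vertical axis, number of members in brackets), with a bar at the family median. The 7 subunits of TRiC and the 7 beta subunits of the 20S core all lie above 0 with all 6 pools in the fit (4 and 5 of them without cold-sensitive replicate 3), and no single point passed the test over all genes.

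Among the chaperones of the ER, some pools were clearly apart. Hspa5 (BiP, GRP78, at chr2:34771970-34777547 of GRCm38, plus strand) is the HSP70 of the ER lumen, holds nascent secretory and membrane proteins and keeps the sensors of the unfolded protein response inactive. Its level in the cold-insensitive pools, in the order of their replicate numbers, was 883, 879 and 852 RPM, and in the cold-sensitive pools 1191, 1237 and 1278 RPM, an order kept for all genes below. Both groups were narrow (871 ± 17.2 and 1235 ± 43.3 RPM, SD, n = 3) and did not overlap. The fold was 1.42 with a 95% interval of 1.07 to 1.87, and the log2 fold change stayed between 0.48 and 0.52 whichever pool was left out. The adjusted p was 0.307 by edgeR and 0.0850 by DESeq2, and the two-sided exact permutation p was 0.1, the smallest that 3 pools against 3 allow.

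Hspa13, an HSP70 relative anchored in the ER, (chr16:75745431-75767104, minus strand) had 128, 77.4 and 65.8 RPM in cold-insensitive neurons and 150, 185 and 142 RPM in cold-sensitive neurons. It had the smallest p of all members, a log2 fold change of 0.81 ± 0.30 (SE) with an adjusted p of 0.256 by edgeR, and its pools did not overlap. Dnajc10 (ERdj5, at chr2:80315466-80354043, plus strand) is a J-domain disulfide reductase that works with Hspa5 in clearing misfolded proteins from the ER. It had 144, 102 and 92.8 RPM against 196, 170 and 179 RPM, a log2 fold change of 0.68 ± 0.27 (SE) and an adjusted p of 0.305 by edgeR. Every cold-sensitive pool again exceeded every cold-insensitive one.

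Hsp90b1 (GRP94), the HSP90 of the ER, had 891, 878 and 716 RPM against 932, 970 and 1229 RPM. The pools did not overlap, but the gap between the nearest was small and cold-sensitive replicate 3 stood above the rest, and the log2 fold change was 0.33 ± 0.21 (SE). The remaining members assigned here to the ER overlapped between the types. Dnajb11 (ERdj3), Dnajc3 (p58IPK) and Dnajc1, all J-domain partners of Hspa5, had log2 fold changes of 0.42, 0.34 and 0.28. Dnajb9 (ERdj4), a repressor of the stress sensor IRE1, had a log2 fold change of -0.01.

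Over the 8 ER members, a group made after their values had been seen, 7 were above 0, the median log2 fold change was 0.38, and the summed level was 2363, 2245 and 2046 RPM in cold-insensitive neurons against 2825, 2920 and 3183 RPM in cold-sensitive ones. The ratio of the mean sums was 1.34, and 1.29 without Hspa5. The median was 0.34 to 0.48 whichever pool was left out or with the replicate number as a block. The 54 chaperones assigned to neither the ER nor the mitochondria had a median of 0.10, and their summed level overlapped between the types. They included J-domain proteins of the ER membrane such as Dnajb12, Dnajb14, Dnajc14 and Dnajc18, with log2 fold changes of 0.47, 0.38, -0.20 and 0.63. The ER group is thus not complete, and other assignments were not tested. Set against Hspa8, the constitutive HSP70 of the cytosol, Hspa5 stood at 35.1%, 37.1% and 30.7% in cold-insensitive neurons and at 51.1%, 44.3% and 47.5% in cold-sensitive ones.

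**Figure D2:**
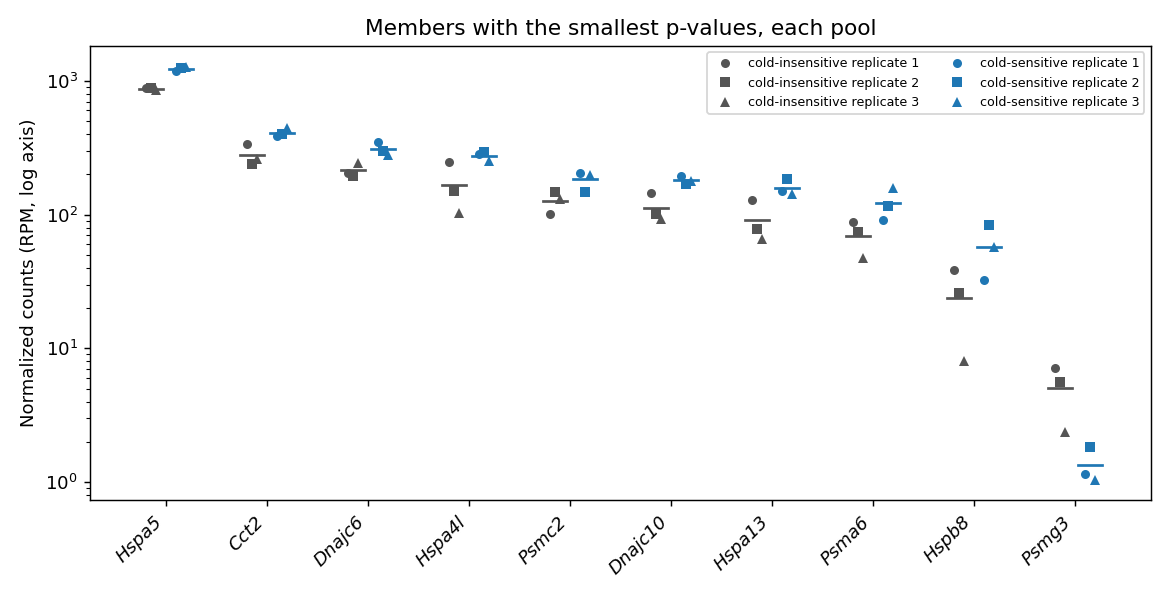
Normalized counts (RPM, log axis) of the 10 members with an unadjusted p under 0.05 in each of the 6 pools, with circles, squares and triangles for replicates 1 to 3 and a line at the mean of each type. The cold-sensitive pools lie above all cold-insensitive pools for 8 of the genes, overlap them for Hspb8 and lie below them for Psmg3.

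The promoters of ER genes are shown because Hspa5, whose pools lay far apart, and its partners belong to them. Of the 8 ER members, 4 had pools without overlap (50%, against 7.84% of all genes), but the group was made with these values in view. The ER stress element, CCAAT and CCACG with 9 bases of any kind between them, on either strand, is the sequence through which ATF6 acts. It was searched in the RefSeq promoter windows of the mouse (GRCm38.p6), which run from 250 bases before to 50 bases after a transcription start. Of 32851 windows, 0.119% held it. Of the members, 91 were matched by symbol in 111 windows, and 3 genes held the element, all of them ER members. They were Hspa5 (chr2:34771840-34772139, plus strand), Hsp90b1 (chr10:86705395-86705694, minus strand), with 2 copies on opposite strands, and Dnajc3 (chr14:118937682-118937981, plus strand). Each is printed 5′ to 3′ on the strand of its gene, with the element in capitals.
Hspa5: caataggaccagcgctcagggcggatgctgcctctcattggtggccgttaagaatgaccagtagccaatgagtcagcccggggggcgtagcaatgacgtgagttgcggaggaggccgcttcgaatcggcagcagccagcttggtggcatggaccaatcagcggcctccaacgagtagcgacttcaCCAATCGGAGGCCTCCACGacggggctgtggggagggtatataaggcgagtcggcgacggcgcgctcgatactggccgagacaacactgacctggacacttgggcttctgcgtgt
Hsp90b1: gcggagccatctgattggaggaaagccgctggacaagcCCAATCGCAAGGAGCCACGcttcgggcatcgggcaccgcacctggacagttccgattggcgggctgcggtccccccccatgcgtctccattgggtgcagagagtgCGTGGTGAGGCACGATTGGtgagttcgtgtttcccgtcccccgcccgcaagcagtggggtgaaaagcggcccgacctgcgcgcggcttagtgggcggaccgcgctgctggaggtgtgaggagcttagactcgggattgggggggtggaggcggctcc
Dnajc3: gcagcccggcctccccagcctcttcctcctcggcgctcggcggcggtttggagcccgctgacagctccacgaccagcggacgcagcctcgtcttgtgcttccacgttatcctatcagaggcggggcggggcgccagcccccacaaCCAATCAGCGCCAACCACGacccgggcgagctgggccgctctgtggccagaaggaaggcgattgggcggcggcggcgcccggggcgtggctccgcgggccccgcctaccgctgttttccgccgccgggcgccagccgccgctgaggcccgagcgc
Hspa5 and Hsp90b1 were higher in every cold-sensitive pool, while Dnajc3 had 67.6, 50.4 and 62.1 RPM against 121, 65.7 and 42.1 RPM and overlapped. A match describes the letters and not the use of a site.

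Of 20 genes of ER folding and the unfolded protein response in the table (21 listed), 0 were called, 14 had a log2 fold change above 0, and the median was 0.16. At an unadjusted p under 0.05 by edgeR, 3 were higher (15%, against 5.04% of all genes) and 1 lower (5%, against 5.66%). Xbp1, the transcription factor activated by IRE1, had 109, 136 and 90.2 RPM against 189, 152 and 202 RPM, with no overlap. Pdia3, a disulfide isomerase of glycoproteins, had 404, 409 and 440 RPM against 514, 648 and 628 RPM, also with no overlap. Ddit3 (CHOP), a factor of prolonged ER stress, had 50.01, 43.4 and 16.2 RPM against 103, 35.9 and 101 RPM and overlapped. Pdia4, another disulfide isomerase, was the one lower gene, with 85.3, 100.0 and 97.9 RPM against 43.7, 59.3 and 59.95 RPM, also with no overlap. In this list every cold-sensitive pool lay above for 4 genes (20%, against 7.84% of all genes). The reverse held for 1 gene (5%, against 8.18%). The lectin chaperones Canx and Calr had log2 fold changes of 0.02 and -0.08, and Atf4 of 0.00.

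The abundant cytosolic chaperones differed by less than their spread. Per kilobase of exon, the highest members were Hsp90ab1 (878 RPM per kb), Hsp90aa1 (762), Hspa8 (599) and Hspa5 (249), averaged over the 6 pools. Hspa8 had 2519, 2368 and 2770 RPM against 2333, 2792 and 2689 RPM, with a fold interval that runs from -0.38 to 0.44 on the log2 scale. Hsp90aa1, the inducible cytosolic HSP90, had 2558, 2588 and 3116 RPM against 2483, 2986 and 4238 RPM, with cold-sensitive replicate 3 above the others. Its constitutive paralog Hsp90ab1 had 2297, 3165 and 2958 RPM against 1996, 2470 and 2906 RPM. The log2 fold changes of the paralogs were 0.23 and -0.19, and neither passed the test. Without cold-sensitive replicate 3 that of Hsp90aa1 was -0.01. Their ratio per kilobase was 0.850, 0.624 and 0.804 in cold-insensitive and 0.949, 0.922 and 1.11 in cold-sensitive neurons, without overlap. This ratio was not tested, and no share over other pairs of genes was worked out.

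HSP110 proteins are the nucleotide exchange factors of HSP70 and help to dissolve aggregates. Hspa4l had 246, 151 and 104 RPM in cold-insensitive and 283, 295 and 252 RPM in cold-sensitive pools. The cold-insensitive pools spread widely, the nearest pools of the types were close, and the log2 fold change was 0.72 ± 0.27 (SE) with an adjusted p of 0.277 by edgeR and 0.0999 with the replicate block. Hspa4 had a log2 fold change of 0.42 ± 0.22 (SE), and the heat-inducible Hsph1, with 631, 497 and 554 RPM against 368, 583 and 581 RPM, one of -0.14 ± 0.22 (SE).

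The inducible heat shock genes did not stand out in either type. Hspa1a and Hspa1b, the stress-inducible HSP70 genes, are nearly identical in sequence. Reads that map to both are not counted at the default settings, so the values of each are uncertain and may be too low. Hspa1a had 62.8, 7.67 and 7.05 RPM against 44.5, 11.7 and 27.8 RPM, and Hspa1b 48.2, 16.9 and 15.3 RPM against 17.8, 16.9 and 8.93 RPM. Together they were 0.805% to 4.41% of the level of Hspa8, and replicate 1 was the highest in both types. Dnajb1, the J-domain partner that is induced with them, had 99.2, 48.7 and 80.8 RPM against 97.1, 39.0 and 68.0 RPM, with replicate 1 highest again in both types. Hsf1 had a log2 fold change of -0.40 ± 0.51 (SE), Hsf2 of 0.00 ± 0.31 (SE) and Bag3, a cochaperone of selective autophagy, of -0.45 ± 0.33 (SE).

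Of 16 textbook targets of HSF1 in the table (18 listed, 12 of the 16 also members), 0 were called and the median log2 fold change was 0.09. At an unadjusted p under 0.05 by edgeR, Hspb8 was higher (6.25% of the list, against 5.04% of all genes) and Cryab lower (6.25%, against 5.66%). Hspb8, a small heat shock protein that works with Bag3 and was the only small heat shock protein among the members, had 38.2, 25.7 and 8.03 RPM against 32.2, 83.2 and 56.8 RPM. Its log2 fold change of 1.25 ± 0.53 (SE) was the highest of all members, but its pools overlapped. Cryab, another small heat shock protein that is abundant in oligodendrocytes, had 21.96, 52.5 and 103 RPM against 30.5, 13.8 and 29.6 RPM, a log2 fold change of -1.25 ± 0.53 (SE).

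The heat shock element is the sequence bound by HSF1, and 3 of its inverted units read GAA, TTC and GAA, or on the other strand TTC, GAA and TTC, with 2 bases of any kind between neighbouring units. Of all promoter windows 0.603% held it, and of the members Hspd1, Hspe1, Hsph1 and Dnajb6. Hspd1 and Hspe1 encode HSP60 and HSP10, the chamber and lid of the mitochondrial chaperonin, and lie head to head. Another window of Hspd1 (chr1:55088194-55088493, minus strand) held 0 matches and is not shown. The window of Hspd1 with matches (chr1:55087883-55088182, minus strand) is shown as the counterpart of the ER promoters. Its 2 overlapping matches of opposite strand are in capitals.
Hspd1: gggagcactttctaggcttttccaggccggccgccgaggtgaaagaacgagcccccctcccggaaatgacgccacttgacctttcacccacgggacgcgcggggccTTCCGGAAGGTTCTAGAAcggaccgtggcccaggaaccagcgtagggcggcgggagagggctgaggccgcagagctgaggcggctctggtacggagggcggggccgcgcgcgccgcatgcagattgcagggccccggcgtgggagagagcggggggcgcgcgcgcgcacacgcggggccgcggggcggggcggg
The same stretch fell in the window of Hspe1. Hspd1 had 301, 150 and 151 RPM against 243, 229 and 276 RPM and overlapped, and the log2 fold changes of Hspd1, Hspe1, Hsph1 and Dnajb6 were 0.31, 0.10, -0.14 and -0.24. The exons of Hspd1 and Hspe1 overlap by 112 bases on opposite strands, where counts made without regard to strand cannot be assigned to either gene.

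J-domain proteins were the most diverse family, with 35 members. Among 22 Dnajc genes, 15 were above 0 with a median of 0.35, while the 9 Dnajb and 4 Dnaja genes had medians of -0.01 and -0.02. Dnajc6 (auxilin), which with Hspa8 uncoats clathrin-coated vesicles at the synapse, had 204, 194 and 244 RPM against 352, 301 and 280 RPM. The pools did not overlap, and the log2 fold change was 0.54 ± 0.22 (SE) with an adjusted p of 0.347 by edgeR. Dnajc5 (cysteine string protein alpha), the synaptic vesicle chaperone and the most abundant of the Dnajc genes by RPM, had 371, 213 and 348 RPM against 306, 272 and 286 RPM and overlapped. Beside Dnajc6 and Dnajc10, the pools of Dnajc18, Dnajc30 and Dnajb12 did not overlap, all of them higher in cold-sensitive neurons. Every cold-sensitive pool was thus above for 5 of the 35 J-domain genes (14.3%, against 7.84% of all genes) and below for 0 (against 8.18%). Dnajc30, a mitochondrial protein, had values of 6.07 to 9.54 RPM against 10.6 to 21.8 RPM. Its exons overlap those of Bud23 by 436 bases on the opposite strand. Snap25, a component of synaptic vesicle release among the neuronal markers, was also above in every cold-sensitive pool. It had 1224, 974.95 and 1435 RPM against 1437, 1826 and 2383 RPM, and its part in the values of the synaptic chaperones was not tested. Of the 9 neuronal markers, 6 had a log2 fold change above 0 and 3 below, with a median of 0.13. For 2 of them (22.2%, against 7.84% of all genes) every cold-sensitive pool lay above.

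All of the 7 TRiC subunits in the table had a log2 fold change above 0, between 0.05 and 0.56, with a median of 0.26. Without cold-sensitive replicate 3, 4 of 7 were above 0 and the median was 0.00. Cct2 (chr10:117051001-117063814, minus strand) had 339, 238 and 260 RPM against 384, 402 and 445 RPM, without overlap, a fold of 1.47 (95% interval 1.07 to 2.01) and an adjusted p of 0.315 by edgeR. Cct4 had 87.0, 85.7 and 114 RPM against 127, 145 and 118 RPM, also without overlap but with the nearest pools close together. The 5 others overlapped, so that every cold-sensitive pool was above for 2 of 7 subunits (28.6%, against 7.84% of all genes). Summed over the subunits, the level was 1645, 1506 and 1529 RPM in cold-insensitive and 1638, 1793 and 2193 RPM in cold-sensitive neurons, so that cold-sensitive replicate 1 lay among the cold-insensitive pools. Prefoldin, which hands actin and tubulin to TRiC, had 7 of 8 listed genes in the table with a median of 0.06 and 0 called. Its subunit Pfdn4 had 84.3, 70.9 and 67.5 RPM against 48.8, 28.9 and 49.2 RPM, lower in every cold-sensitive pool, with an unadjusted p of 0.0445 and an adjusted p of 0.446 by edgeR.

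The subunits of the proteasome come together in fixed numbers, and in these pools the median log2 fold change was larger for the core than for the cap, a difference that was not tested. Of the 14 subunits of the 20S core, 12 had a log2 fold change above 0 with a median of 0.27. Of the 17 subunits of the 19S cap, 12 were above 0 with a median of 0.08. Without cold-sensitive replicate 3 the counts were 9 of 14 and 9 of 17 and the medians 0.12 and 0.00. All of the 7 beta subunits were above 0 with a median of 0.55. However, 5 of 7 were above 0 without cold-sensitive replicate 3 (median 0.23) or cold-insensitive replicate 1 (median 0.29). The catalytic sites are on Psmb5, Psmb6 and Psmb7, whose log2 fold changes were 0.59, 0.08 and 0.23 and whose pools overlapped. Of the beta subunits only Psmb2 separated the pools, with 18.6, 36.1 and 49.5 RPM against 66.1, 51.9 and 64.7 RPM. Psmb1, the most abundant of them by RPM, had 107, 100.02 and 97.1 RPM against 173, 103 and 175 RPM and overlapped.

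Among the alpha subunits, which form the gate of the core, Psma6 (chr12:55384222-55418454, plus strand) had 87.5, 74.3 and 47.0 RPM against 90.8, 116 and 159 RPM. The nearest pools were almost level and cold-sensitive replicate 3 was far above, with a log2 fold change of 0.81 ± 0.32 (SE) and an adjusted p of 0.325 by edgeR. In the cap, the ATPase Psmc2 had 100.4, 148 and 131 RPM against 205, 149 and 198 RPM, a log2 fold change of 0.54 ± 0.26 (SE) and an adjusted p of 0.464, with cold-sensitive replicate 2 and cold-insensitive replicate 2 nearly level. Psmc4, another ATPase, and Psmd12, of the lid, were the remaining cap subunits with no overlap. Every cold-sensitive pool was thus above for 3 of the 17 cap subunits (17.6%) and 2 of the 14 core subunits (14.3%). Over all genes this held for 7.84%. Psmd1 and Psmd2, the large scaffold subunits of the base, had log2 fold changes of 0.17 and -0.13, the former with 301 bases of exon shared with Gm21972 on the same strand.

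Per kilobase of exon, the mean level of the core subunits was 0.673, 0.618 and 0.601 of that of the cap subunits in cold-insensitive replicates 1 to 3 and 0.720, 0.726 and 0.800 in cold-sensitive replicates 1 to 3. The ratio was thus 0.631 ± 0.0378 against 0.749 ± 0.0448 (SD, n = 3), and the pools did not overlap, but the ratio was not tested. Without the scaffold subunits Psmd1 and Psmd2 it was 0.655 ± 0.0249 against 0.770 ± 0.0343. The median of all 41 proteasome members was 0.17, but 0.00 when cold-sensitive replicate 3 was left out and 0.03 when cold-insensitive replicate 1 was, so the level of the proteasome as a whole rested on those pools.

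**Figure D3:**
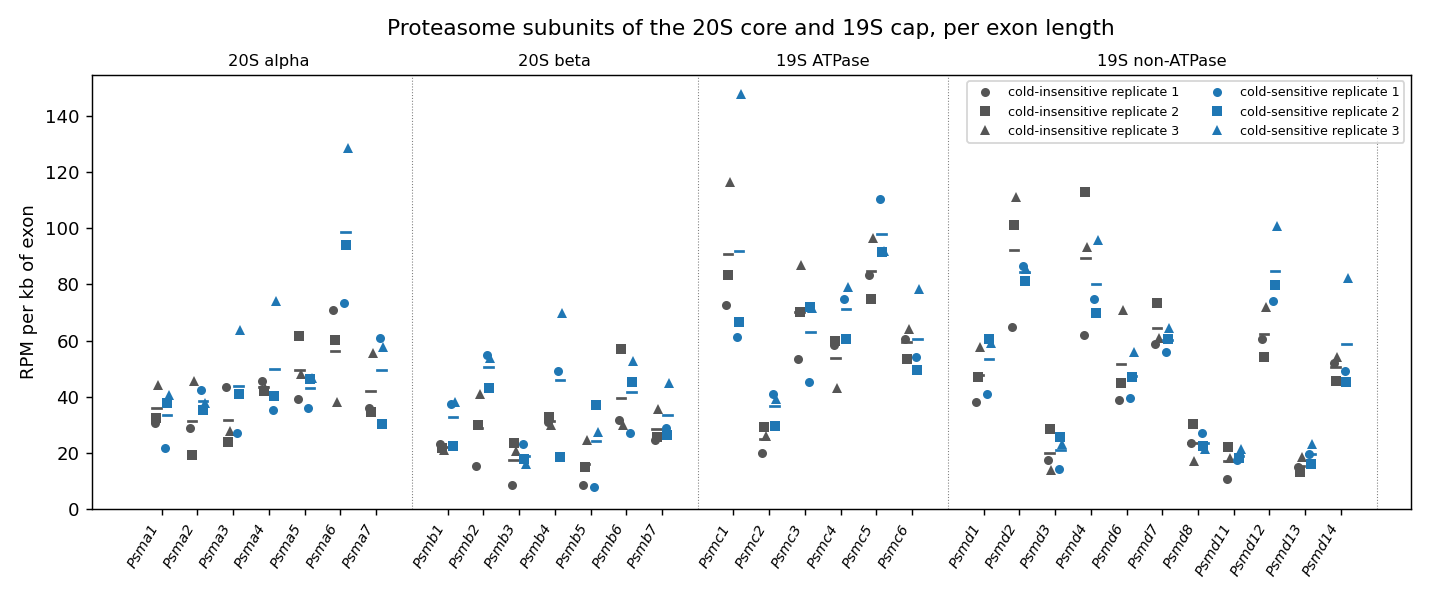
Level per kilobase of exon (RPM per kb, vertical axis) of the subunits of the 20S core and the 19S cap in each pool, with circles, squares and triangles for replicates 1 to 3, cold-insensitive in grey and cold-sensitive in blue, and a line at each mean. Cold-sensitive replicate 3 stands far above the other pools for subunits such as Psma6 and Psmc1, and Psma6 and Psmb2 are the core subunits whose pools do not overlap.

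The subunits of one complex were far from equal in RNA. Within the core of cold-insensitive neurons, Psmb5 was lowest with 16.1 RPM per kb and Psma6 highest with 56.4 RPM per kb, which is 3.51 times more. In cold-sensitive neurons Psmb3 was lowest with 19.1 RPM per kb and Psma6 highest with 98.7 RPM per kb. Psmb5 bears the chymotrypsin-like site, and its pools ranged from 7.60 to 22.1 RPM and from 7.18 to 33.5 RPM. Psmb10, a subunit of the immunoproteasome, was present at 1.54 to 13.7 RPM and overlapped between the types.

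The activators Psme1, Psme3 and Psme4 and the inhibitor Psmf1 had log2 fold changes of -0.44 to -0.04, each smaller than its standard error, and all overlapped. Of the 4, 2 were above 0 when cold-sensitive replicate 1 was left out, and 2 when cold-insensitive replicate 3 was. Their summed level was 366, 347 and 399 RPM against 268, 395 and 365 RPM, so that cold-sensitive replicate 1 alone lay below the cold-insensitive pools. Of the 5 assembly chaperones, Psmg3, which helps to build the alpha ring, was the lone member that was lower at an unadjusted p under 0.05, with 7.10, 5.62 and 2.35 RPM against 1.15, 1.84 and 1.04 RPM. Its log2 fold change was -1.91 ± 0.85 (SE) with an adjusted p of 0.390 by edgeR and 0.577 by DESeq2. It was close to the limit of 1 RPM of the table, its lowest count in a library was 4, and 280 bases of its exons overlap those of Gm26938 on the same strand. Psmg1, another alpha-ring assembly factor, had a log2 fold change of 0.82 ± 0.73 (SE).

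**Figure D4:**
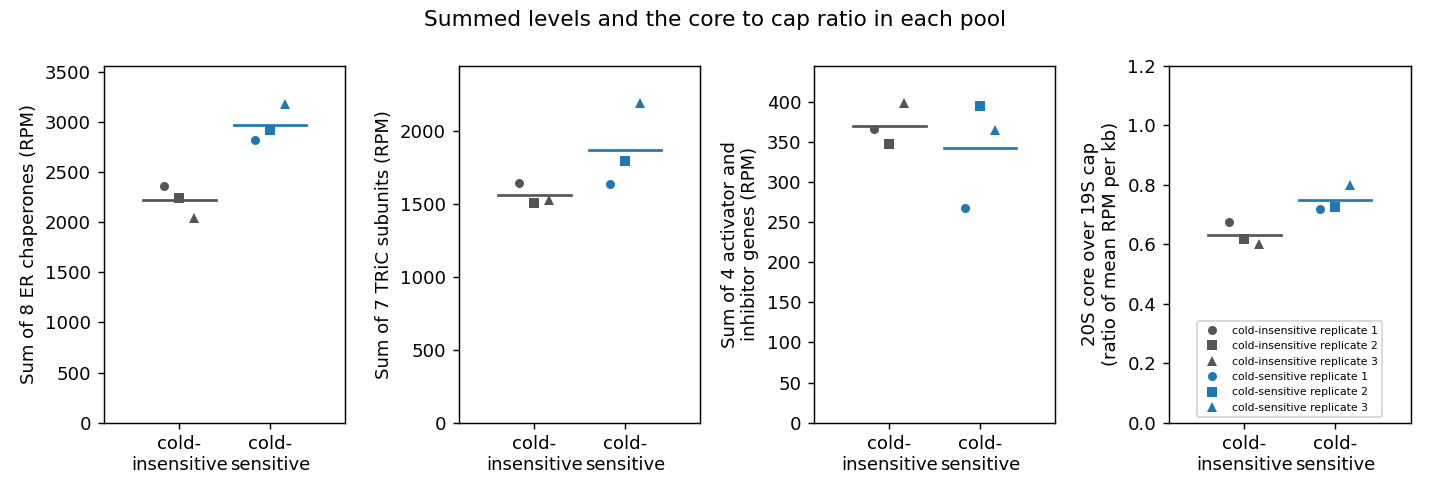
Summed level (RPM) of the 8 ER chaperones, the 7 TRiC subunits and the 4 proteasome activator and inhibitor genes, and the ratio of the 20S core to the 19S cap per kilobase of exon, in each of the 6 pools, with a line at the mean of each type. The ER sums (2046 to 2363 against 2825 to 3183 RPM) and the core to cap ratios do not overlap between the types, while the sums of TRiC and of the activators do. None of these sums and ratios was tested.

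Genes that feed or regulate the proteasome had 0 calls. Of 16 genes of ubiquitin and its shuttles in the table (17 listed), 0 were called, at an unadjusted p under 0.05 by edgeR 0 were higher and 1 was lower, and the median log2 fold change was 0.07. The 1 lower gene was Rps27a, with 156, 197 and 281 RPM against 93.7, 112 and 168 RPM, a log2 fold change of -0.76 and overlapping pools. In this list Vcp, which extracts tagged proteins, and Ubqln1 and Usp14, which act at the proteasome, were above in every cold-sensitive pool. These were 3 of 16, or 18.8%, against 7.84% of all genes. Their log2 fold changes were 0.31, 0.27 and 0.41, with unadjusted p of 0.175, 0.225 and 0.116 by edgeR. Ubb, a polyubiquitin gene, had 699, 844 and 793 RPM against 709, 598 and 871 RPM. Of 9 partners and regulators of the proteasome in the table (13 listed), 0 were called, 7 were above 0, the median was 0.19, and the sums of 1008, 1252 and 1172 RPM against 1276, 1411 and 1444 RPM did not overlap. Txnl1, a thioredoxin bound to the 19S cap, and AI314180 (Ecpas), which tethers the cap, had unadjusted p of 0.0288 and 0.0346 by edgeR and log2 fold changes of 0.56 and 0.51, and both overlapped. Nfe2l1, the transcription factor that raises proteasome genes when the proteasome is blocked, had 287, 297 and 255 RPM against 305, 320 and 255 RPM. The core of the antioxidant response element through which it acts, TGAC and GC with 3 bases of any kind between them, on either strand, was in the promoter windows of 5 of 34 proteasome genes matched, Psmb5, Psmb6, Psmc6, Psmd12 and Psme4, and in 12.4% of all windows.

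The cochaperones of HSP90 had 14 of 14 listed genes in the table, 0 called, 0 at an unadjusted p under 0.05 in either direction by edgeR and a median of 0.04. Stip1, a member, which passes clients from HSP70 to HSP90, had 251, 308 and 228 RPM against 308, 356 and 352 RPM, overlapping by less than 1 RPM. Of the 8 mitochondrial chaperone members, 6 were above 0 with a median of 0.18, and Hspa9 (mortalin), the HSP70 of the matrix, had 510, 730 and 546 RPM against 687, 582 and 876 RPM. Of 10 genes of mitochondrial quality control, 0 were called, and the matrix protease Lonp1, with 97.1, 125 and 77.5 RPM against 184, 143 and 149 RPM, was the one with an unadjusted p under 0.05 by edgeR.

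The early response genes, which neurons switch on within minutes of activity or handling, held genes that passed the test. Of 14 in the table (15 listed), Fosb and Nr4a1 fell, with adjusted p of 0.0341 and 0.0271 by edgeR, and 0 rose. Over all genes, 0.835% were called lower and 0.334% higher. At an unadjusted p under 0.05 by edgeR, 1 was higher (7.14%, against 5.04% of all genes) and 5 were lower (35.7%, against 5.66%). Egr1 was the one higher, with 517, 374 and 363 RPM against 955, 685 and 607 RPM, no overlap and an adjusted p of 0.0700. Fosb had 475, 481 and 389 RPM in cold-insensitive against 290, 214 and 154 RPM in cold-sensitive neurons, and Nr4a1 had 72.8, 64.7 and 68.5 RPM against 17.8, 13.5 and 20.1 RPM. Both of the latter were higher in every cold-insensitive pool, and the relation of these genes to the chaperone levels was not tested.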

How the data were processed

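RNA of pooled POA neurons was measured in 6 libraries, 3 of each type, with groups and replicate numbers from the labels. After trimming (Trimmomatic 0.36), the authors mapped the reads to GRCm38.p6 with STAR 2.5.4b. Gene counts over the exons of protein-coding genes came from featureCounts (Subread 1.6.2, default settings, strand ignored), and the authors deposited these raw counts. Their normalized signal, deposited beside them, is the count scaled to the TMM effective library size (RPM), used here as the level. The authors had left out genes that lacked reads in a library or stayed below 1 RPM there. The authors' columns of fold change and p-values were not used.

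Counts of all 9583 genes were fitted in R 4.3.3 with edgeR 4.0.16 (TMM, estimateDisp, glmQLFit in its legacy form, glmQLFTest), with type as the only term. The threshold for a call was a Benjamini-Hochberg adjusted p of 0.05. Biological variation between pools, as edgeR estimates it over all genes, had a coefficient of 42.2%. The script was tested on simulated data. DESeq2 1.42.0, limma 3.58.1 on log2(RPM + 1), other scalings, filters of 10 and 50 counts, the replicate number as a block and leaving out each library were alternatives. Each pool was 1 sample, and p-values measure the spread between pools. By the methods both types of a replicate came from the same coverslips, so the numbers were taken to pair the libraries. However, deviations of same-numbered libraries correlated at 0.0436 to 0.0546 only, and those of differently numbered libraries at -0.0396 to -0.0111. Intervals cover 95% on the fitted scale.

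Members and lists were chosen with earlier results of these data known. Genes named are those with an unadjusted p under 0.05, the most abundant of each family by RPM and the inducible heat shock genes, and others were named after their values had been seen. Exon lengths, coordinates and overlaps came from GENCODE M21 (GRCm38), in which 9500 genes were matched by symbol, and promoter windows from RefSeq.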

Additional observations from a re-analysis of the deposited data

How the results depend on the processing

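The count of called members was 0 under every alternative run, and the smallest adjusted p of a member was 0.0708, for the fit without cold-insensitive replicate 1. Of 472 values of 28 named genes under the alternatives, 472 stayed on the same side of the threshold and 36 took another sign. The median log2 fold change of the chaperone members was 0.07 to 0.23 and that of the proteasome members 0.00 to 0.24 when single libraries were left out.

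Over all genes, 112 were called, against 224 with DESeq2, 177 with the newer quasi-likelihood fit and 29 to 92 when single libraries were left out (29 without cold-insensitive replicate 2). With the replicate block, edgeR called 154 genes and 0 members, and at an unadjusted p under 0.05 it gave 10 members that were higher and 0 that were lower. The count higher was 3 to 11 and the count lower 0 to 1 when single libraries were left out. DESeq2, limma and both filters on low counts also gave 0 lower. The causes were not tested. With 3 pools per type and this spread, changes of the size seen here can be missed.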
